A study of Mus musculus with 2 samples.

Results

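Ly6a, Ly6c1, Ly6c2, Ly6d and Ly6e are 5 members of the mouse Ly6 gene family, and Ly6a encodes Sca-1, a surface protein that the sort of these cells selected against. They were taken by gene symbol, 5 of the 32285 genes listed, and all 5 had UMIs, which are counted RNA molecules. The data were 2 droplet single-cell 3' RNA libraries of bone marrow cells sorted as NKP, natural killer progenitors, 1 from Irf4-/- mice and 1 from WT C57BL/6 mice. Irf4 encodes an interferon regulatory factor that plasma cells and activated lymphocytes require. Cells passed the gate if they stained for CD122, the product of Il2rb, and lacked Ncr1, NK1.1, c-kit, Sca-1 and the lineage markers. Both libraries shared this gate, and the kit text speaks of nuclei although cells were sorted. The design of the Irf4 allele, the age and sex of the mice, their number and any pooling are not stated in the labels. Each genotype had 1 library, so nothing was replicated and no test was made. Levels are CPM, UMIs per 1000000 UMIs summed over cells, log2 ratios are the library labelled Irf4-/- over the library labelled WT, and ranges in parentheses are 95% intervals that cover counting error only.

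Ly6 proteins are small proteins with a disulfide-bonded three-finger fold, most of them held on the cell surface by a glycosylphosphatidylinositol (GPI) anchor. In mouse blood cells they are best known as sorting markers. Sca-1 marks haematopoietic stem cells and activated lymphocytes, and its gene is interferon-inducible. Ly6C, encoded by the near copies Ly6c1 and Ly6c2, marks monocytes and memory T cells, Ly6D marks the early commitment of lymphoid progenitors to the B lineage, and Ly6E, also interferon-inducible, is widely expressed.

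The 5 genes lie on mouse chromosome 15 in the GRCm38 build. Ly6d (ENSMUSG00000034634) spans 74762056 to 74763620, Ly6a (ENSMUSG00000075602) 74994877 to 74998031, Ly6c1 (ENSMUSG00000079018) 75044018 to 75048830 and Ly6c2 (ENSMUSG00000022584) 75108158 to 75111970, all on the minus strand. Ly6e (ENSMUSG00000022587) spans 74955051 to 74959905 on the plus strand. Ly6c1 and Ly6c2 are the hardest pair to count apart. The last 300 bases of their longest coding transcripts, where 3' reads gather, were identical at 287 of 293 aligned bases (98.0%). Of 211 stretches of 90 bases there, 35 (16.6%) occurred in both genes, and no such stretch was shared by Ly6a, Ly6d or Ly6e with any other member. How reads that match both genes were counted is not stated in the labels, so the division of counts between Ly6c1 and Ly6c2 is uncertain.

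The promoters of this pair are shown because the counts fell almost wholly on one of the 2 copies. Each sequence runs from 250 bases before to 50 bases after a start of the gene, on the minus strand, from RefSeq on GRCm38.p6. Each gene had 2 starts listed, and only the one furthest upstream was used. The capitals mark matches to TATAAA and CCAAT.
Ly6c1, chr15:75048788-75049087: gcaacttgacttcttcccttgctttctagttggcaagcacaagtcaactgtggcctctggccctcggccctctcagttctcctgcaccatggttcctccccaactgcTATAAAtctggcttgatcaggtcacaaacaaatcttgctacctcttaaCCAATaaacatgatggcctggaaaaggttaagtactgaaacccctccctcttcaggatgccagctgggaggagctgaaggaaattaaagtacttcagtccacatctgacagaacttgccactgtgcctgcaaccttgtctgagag
Ly6c2, chr15:75111922-75112221: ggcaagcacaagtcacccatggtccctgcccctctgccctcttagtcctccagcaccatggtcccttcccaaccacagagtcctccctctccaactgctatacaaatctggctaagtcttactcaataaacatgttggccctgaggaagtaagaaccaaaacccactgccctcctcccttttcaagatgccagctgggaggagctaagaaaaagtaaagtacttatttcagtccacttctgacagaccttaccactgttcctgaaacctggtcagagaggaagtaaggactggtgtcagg
The 2 windows were identical at 208 of 266 aligned bases (78.2%). The Ly6c1 window held TATAAA from base 108 and CCAAT from base 156, counted from its 5' end, and the Ly6c2 window held neither on either strand. TATAAA occurred in 13.6% and CCAAT in 37.4% of 32544 promoter windows of this length. An interferon response core (GAAA, any 2 bases, GAAA) and the letters TTCNNNGAA, which 3.45% and 8.33% of the windows held, were in neither sequence. The promoters of Ly6a, Ly6d and Ly6e were not printed.

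The library labelled Irf4-/- held 7955 cells after filtering and the library labelled WT 12367, with median depths of 9540 UMIs (labelled Irf4-/-) and 7125 UMIs (labelled WT) per cell. They shared 27 cell barcodes. Irf4 itself went against the labels, with 803 UMIs (9.77 CPM) in the library labelled Irf4-/- and 287 (3.04 CPM) in the library labelled WT. A 3' count outside a deleted part checks nothing, so each direction below is between libraries as labelled. Il2rb, the gene of the gate's positive marker, had a UMI in 80.8% (labelled Irf4-/-) and 74.3% (labelled WT) of kept cells. Clusters were formed without any Ly6 gene and named from marker genes, except that T cells means the CD3-expressing clusters that did not meet the marker rule for gamma-delta T-like cells. Gamma-delta markers summed to 196 CPM (labelled Irf4-/-) and 117 CPM (labelled WT) in these T cells. In gamma-delta T-like cells they summed to 1900 CPM (labelled Irf4-/-) and 1973 CPM (labelled WT). The library labelled Irf4-/- held 5964 T cells, 753 gamma-delta T-like, 1064 B-lineage and 52 myeloid cells, and the library labelled WT 10046, 1138, 985 and 49, although the gate excluded lineage-positive cells. The T cells had all 10 T cell markers and not the CD3-negative profile of the labelled NKP type. A cell with a member's UMI was counted after drawing 2000 UMIs from each cell, and these equal-depth shares left out 35 (labelled Irf4-/-) and 71 (labelled WT) shallower cells.

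The members divided the cells between them. Ly6c2 and Ly6e were the main Ly6 transcripts of T cells, Ly6d and Ly6e those of B-lineage cells, and Ly6c2 and Ly6e those of myeloid cells. T cells held 88.3% of all Ly6c2 UMIs in the library labelled Irf4-/- and 89.2% in the library labelled WT. They made up 74.97% (labelled Irf4-/-) and 81.23% (labelled WT) of the cells, so most of that share follows from their number. B-lineage cells held 89.8% (labelled Irf4-/-) and 86.0% (labelled WT) of the Ly6d UMIs while making up 13.4% (labelled Irf4-/-) and 7.96% (labelled WT) of the cells. Ly6a was scarce, with 517 UMIs in 377 cells of the library labelled Irf4-/- and 453 UMIs in 343 cells of the library labelled WT. Ly6c1 was scarcer still, with 16 UMIs (labelled Irf4-/-) and 35 UMIs (labelled WT) in all.

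**Figure D1:**
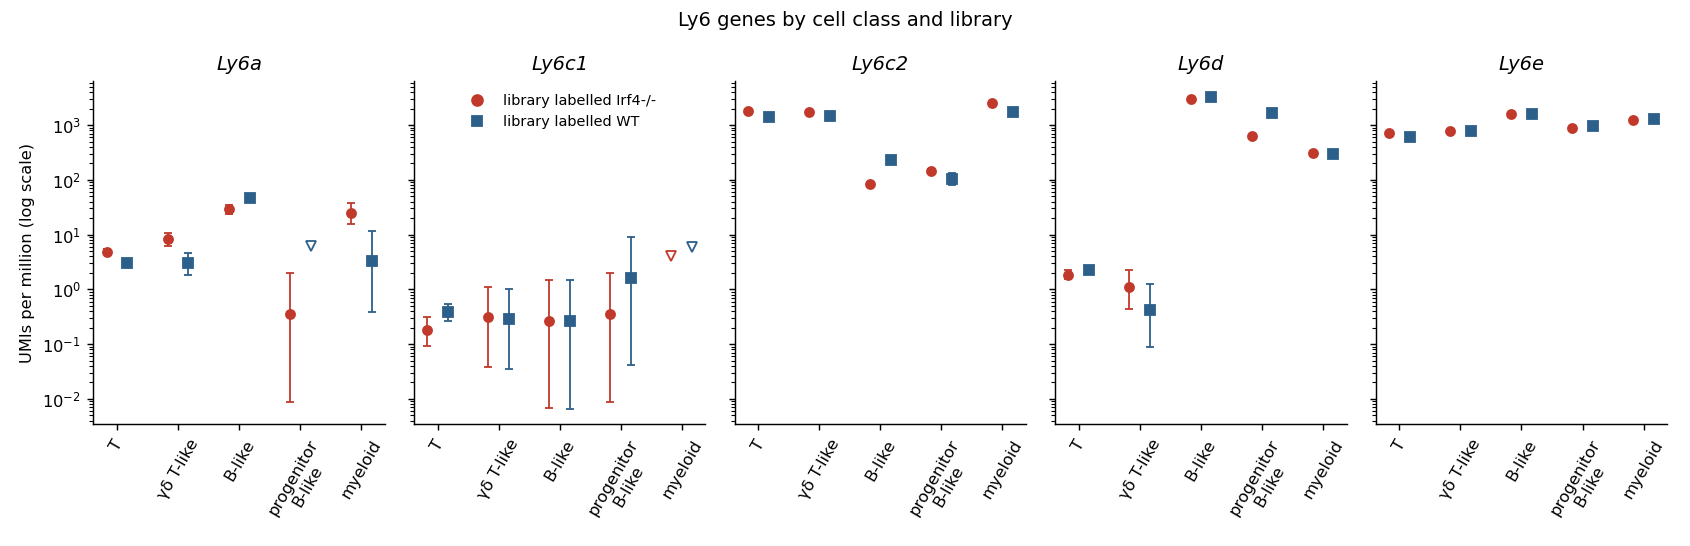
Level of each Ly6 member in CPM (log axis) by class of cells, with the library labelled Irf4-/- as red circles left of the library labelled WT as blue squares; bars are 95% counting intervals and open triangles the upper limit where no UMI was found. Ly6c2 stands at 1414 CPM or above in T, gamma-delta T-like and myeloid cells and at 232 CPM or below in B-like and progenitor B-like cells, where Ly6d and Ly6e lead.

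Ly6a, the gene of the gated-out Sca-1, was low in every class, and its few molecules were not spread evenly. T cells of the library labelled Irf4-/- had 324 Ly6a UMIs, 4.87 CPM (4.35 to 5.43), and those of the library labelled WT 243 UMIs, 3.01 CPM (2.65 to 3.42). The intervals did not overlap, and the log2 ratio was 0.69 (0.45 to 0.94). At equal depth 0.958% of T cells had a Ly6a UMI in the library labelled Irf4-/- and 0.529% in the library labelled WT. Progenitor B-like cells were set beside them for their low Ly6a in these same data, so they are not an independent background. There 1 of 376 cells had a UMI in the library labelled Irf4-/- (interval up to 1.47%) and 0 of 103 in the library labelled WT, which allows a share of up to 2.91%. Median depths before equalising were 10152.5 UMIs (labelled Irf4-/-) and 7397 UMIs (labelled WT) in T cells, and 4344 UMIs (labelled Irf4-/-) and 2591 UMIs (labelled WT) in progenitor B-like cells, and the unequalised T cell shares were 4.11% (labelled Irf4-/-) and 1.97% (labelled WT). With so few progenitor B-like cells, T cell shares of this size could not be separated from theirs, so the shares decide nothing. By level, the T cells of the library labelled Irf4-/- lay above its progenitor B-like cells at 0.352 CPM (0.0089 to 1.96), and those of the library labelled WT did not pass the upper limit of 6.07 CPM of its progenitor B-like cells. Because the comparison cells were chosen for low Ly6a and held 1 (labelled Irf4-/-) and 0 (labelled WT) Ly6a UMIs, the levels decide nothing either. Whether the cells with Ly6a RNA carried Sca-1 protein was not measured.

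Ly6a was highest, among T cell clusters, in the cluster led by Isg15, Ifit1 and Ifit3, genes induced by interferon. Leading genes were taken over both libraries together. Ifit3 was nearly absent from T cells of the library labelled Irf4-/-, as given below, so it names the cells labelled WT only. In the library labelled Irf4-/- its 232 cells, 2.92% of those kept, held 15.7% of the Ly6a UMIs. In the library labelled WT its 468 cells, 3.78%, held 19.0%. Its Ly6a level was 33.6 CPM (26.7 to 41.8) in the library labelled Irf4-/- and 21.6 CPM (17.3 to 26.7) in the library labelled WT. At equal depth a Ly6a UMI was found in 6.03% (labelled Irf4-/-) and 3.85% (labelled WT) of its cells, with overlapping intervals, and before equalising in 18.5% (labelled Irf4-/-) and 12.4% (labelled WT). Both levels lay above those of all other T cell clusters of their library. In T cells at equal depth, Isg15, a ubiquitin-like interferon-induced protein, had a UMI in 28.1% of cells with Ly6a and 4.85% of cells without it in the library labelled Irf4-/-. In the library labelled WT, Isg15 had one in 22.6% of cells with Ly6a and in 4.38% of cells without it. These rest on 16 cells (labelled Irf4-/-) and 12 cells (labelled WT) with both genes. Of those, 10 (labelled Irf4-/-) and 12 (labelled WT) lay in the cluster led by Isg15 itself. The contrast is therefore not separate from the Ly6a level of that cluster. Within the cluster Isg15 had a UMI in 71.4% of cells with Ly6a and 53.2% of cells without it (labelled Irf4-/-). In the library labelled WT these shares were 66.7% and 52.6%.

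The Ly6a ratio was present outside that cluster as well. Without it, T cells had 3.79 CPM in the library labelled Irf4-/- and 2.05 CPM in the library labelled WT, a log2 ratio of 0.89 (0.59 to 1.19). Of 12 T cell clusters with at least 50 cells in each library, 8 had at least 20 Ly6a UMIs, and all 8 were higher in the library labelled Irf4-/-, with log2 ratios of 0.60 to 1.02. In 2 of the 8 the interval lay above 0. Cells carrying both CD3 and Cd79 UMIs held 4.01% (labelled Irf4-/-) and 4.12% (labelled WT) of the T cell Ly6a UMIs. Gamma-delta T-like cells had 53 UMIs, 8.20 CPM (6.14 to 10.7), in the library labelled Irf4-/- and 21 UMIs, 2.99 CPM (1.85 to 4.57), in the library labelled WT, a log2 ratio of 1.46 (0.70 to 2.26).

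B-lineage cells had a higher Ly6a CPM than T cells in both libraries. Their level was 16.8 CPM (13.8 to 20.2) in the library labelled Irf4-/- and 41.0 CPM (35.3 to 47.5) in the library labelled WT, a log2 ratio of -1.29 (-1.64 to -0.94). At equal depth 3.78% (labelled Irf4-/-) and 7.67% (labelled WT) of cells had a UMI. Nearly all of it lay in B-like cells, which had 110 UMIs (labelled Irf4-/-) and 182 UMIs (labelled WT) against 1 (labelled Irf4-/-) and 0 (labelled WT) in progenitor B-like cells. Within the cluster led by the class II genes H2-Aa and H2-Eb1, Ly6a stood at 94.6 CPM (70.4 to 124) over 112 cells of the library labelled Irf4-/- and 85.7 CPM (70.9 to 103) over 327 cells of the library labelled WT, and these intervals overlapped. This was the highest Ly6a level of any T or B-lineage cluster with at least 50 cells in both libraries. Within the larger B-like cluster, led by Ms4a1, it was 16.4 CPM (45 UMIs) in the library labelled Irf4-/- and 27.1 CPM (54 UMIs) in the library labelled WT, a log2 ratio of -0.72. With clusters weighted to equal proportions the B-lineage ratio was -0.16.

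Myeloid cells had 22 Ly6a UMIs in 8 of 52 cells of the library labelled Irf4-/- and 2 UMIs in 2 of 49 cells of the library labelled WT. Median depths were 14800 UMIs (labelled Irf4-/-) and 10614 UMIs (labelled WT), and at equal depth 1 of 48 cells had a Ly6a UMI in each library. By level the order in the library labelled Irf4-/- was B-like cells at 29.2 CPM, myeloid cells at 24.4, gamma-delta T-like cells at 8.20 and T cells at 4.87, and the intervals of the first pair overlapped. The order in the library labelled WT was B-like cells at 47.6 CPM, then myeloid, T and gamma-delta T-like cells at 3.23, 3.01 and 2.99, whose intervals overlapped.

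Ly6c2, which encodes the Ly6C antigen, was the most abundant member in T cells, and was higher in the library labelled Irf4-/-. T cells had 1808 CPM (1798 to 1818) in the library labelled Irf4-/- and 1414 CPM (1406 to 1423) in the library labelled WT, a log2 ratio of 0.35 (0.34 to 0.37). At equal depth 88.3% (labelled Irf4-/-) and 82.2% (labelled WT) of T cells had a Ly6c2 UMI, against 95.1% (labelled Irf4-/-) and 91.5% (labelled WT) before equalising. The whole distribution over cells differed and not a tail alone. T cells with 0 of 2000 drawn UMIs from Ly6c2 made up 11.7% in the library labelled Irf4-/- and 17.8% in the library labelled WT. The medians were 3 UMIs (labelled Irf4-/-) and 2 UMIs (labelled WT). Those with 5 or more made up 33.1% (labelled Irf4-/-) and 22.5% (labelled WT).

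**Figure D2:**
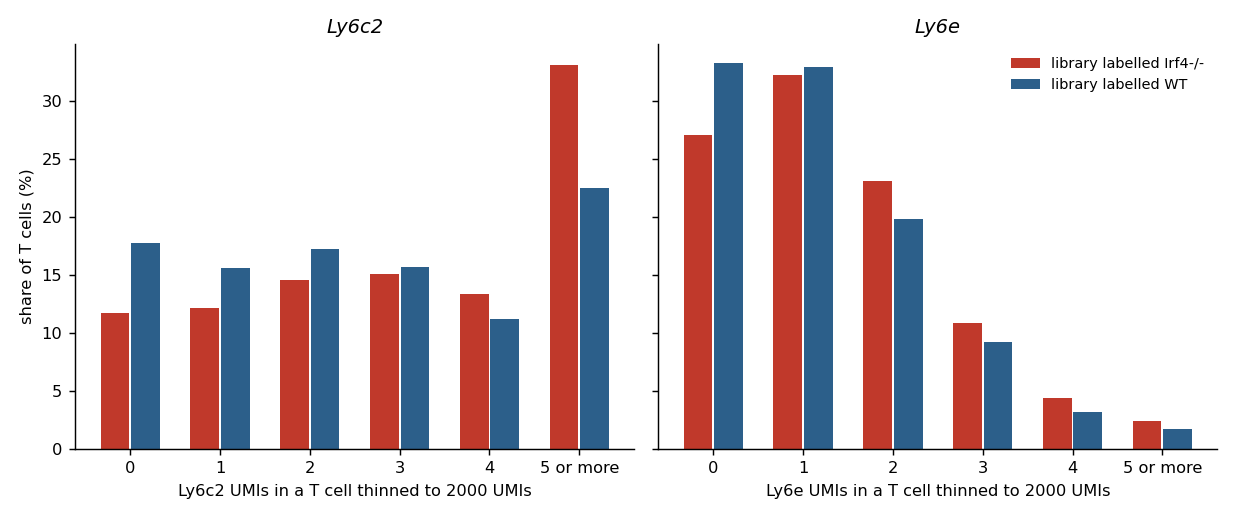
Percent of cells by number of member UMIs among 2000 drawn UMIs per cell, for the library labelled Irf4-/- (red) and the library labelled WT (blue). For Ly6c2 in T cells, 11.7% of cells of the library labelled Irf4-/- and 17.8% of the library labelled WT sit at 0 UMIs.

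Ly6c2 varied more between T cell clusters than between libraries. The interferon-led cluster was the highest in both libraries, with 2587 CPM in the library labelled Irf4-/- and 2067 CPM in the library labelled WT (log2 ratio 0.32, 0.28 to 0.37). Among the lowest was the cluster led by Myb and Dapl1, at 694 CPM (labelled Irf4-/-) and 709 CPM (labelled WT). Its leading genes also included Izumo1r, Nrp1 and Foxp3, markers of regulatory and anergic T cells. Over both libraries the CD8 genes Cd8a and Cd8b1 were each found in most of its cells and Cd4 in a minority. It is therefore not read as a regulatory T cell cluster. Also among the lowest was the cluster led by Nrgn, Klrb1a and Fcer1g, at 733 CPM (labelled Irf4-/-) and 721 CPM (labelled WT). In these clusters the library intervals overlapped. A cluster led by Gzmk, a granzyme of effector memory T cells, had 541 CPM in the library labelled WT with 322 cells, and only 5 cells of the library labelled Irf4-/- fell in it. The library labelled Irf4-/- had the higher level in 11 of the 12 clusters compared, in 10 the interval lay above 0, and the median log2 ratio was 0.23.

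Ly6c2 ratios differed between the clusters of dividing T cells. In the cluster led by histone genes, Top2a and Mki67, genes of DNA replication and mitosis, Ly6c2 was 1534 CPM (1498 to 1571) in the library labelled Irf4-/- and 848 CPM (812 to 885) in the library labelled WT, a log2 ratio of 0.85 (0.78 to 0.93). In the cluster led by the mitotic genes Cenpf and Ube2c the levels were 1316 CPM (labelled Irf4-/-) and 823 CPM (labelled WT), a log2 ratio of 0.68 (0.57 to 0.79). Another cycling cluster, led by the replication genes Hells and Mcm3, had 1860 CPM (labelled Irf4-/-) and 1523 CPM (labelled WT), with log2 ratio 0.29 (0.24 to 0.34). Without the clusters led by cell cycle genes the T cell ratio stayed at 0.35. Among T cells with a Cd8b1 UMI, Cd8b1 being the CD8 beta chain, Ly6c2 was 1724 CPM in the library labelled Irf4-/- and 1316 CPM in the library labelled WT (log2 ratio 0.39). Among those without one it was 1900 CPM (labelled Irf4-/-) and 1661 CPM (labelled WT), with log2 ratio 0.19. Cells with a Cd8b1 UMI numbered 2828 (labelled Irf4-/-) and 6613 (labelled WT), so the libraries differed in T cell make-up, and with clusters weighted to equal proportions the T cell log2 ratio was 0.27.

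**Figure D3:**
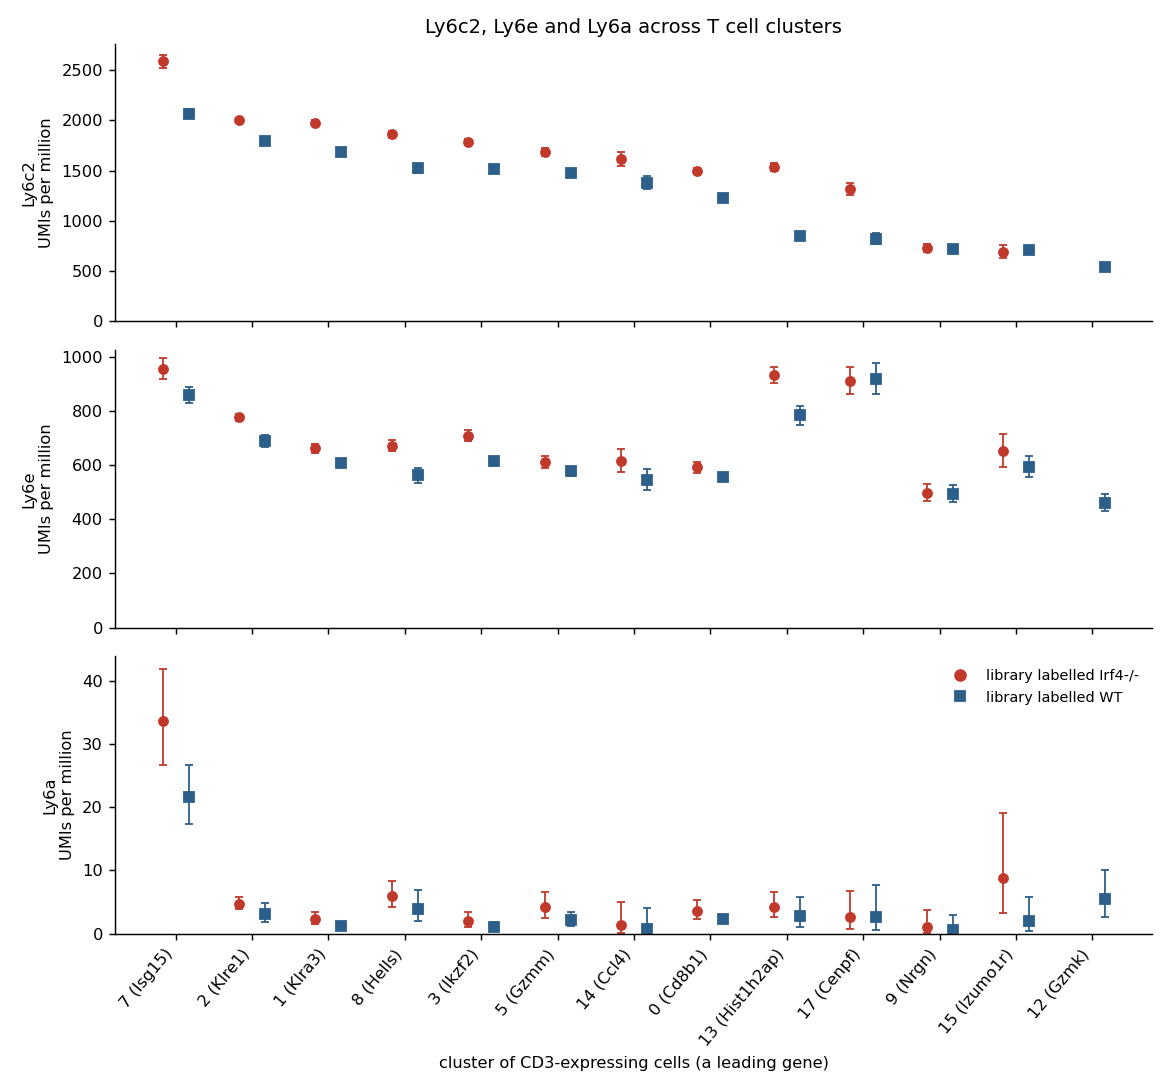
Levels of Ly6c2, Ly6e and Ly6a in CPM in each T cell cluster with at least 50 cells in that library, named by leading gene, with the library labelled Irf4-/- in red and the library labelled WT in blue; bars are 95% counting intervals. The Isg15-led cluster is the highest in Ly6c2, at 2587 CPM (labelled Irf4-/-) and 2067 CPM (labelled WT), and in Ly6a at 33.6 CPM (labelled Irf4-/-) and 21.6 CPM (labelled WT).

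Gamma-delta T-like cells had Ly6c2 levels near those of the T cells, 1754 CPM (1722 to 1787) in the library labelled Irf4-/- and 1478 CPM (1450 to 1507) in the library labelled WT, a log2 ratio of 0.25 (0.21 to 0.29). Myeloid cells had 2482 CPM (2380 to 2587) in the library labelled Irf4-/- and 1732 CPM (1630 to 1839) in the library labelled WT, the highest class in both. The log2 ratio there was 0.52 (0.41 to 0.63), over 52 cells (labelled Irf4-/-) and 49 cells (labelled WT). S100a8, a neutrophil calprotectin subunit, was detected in 37.0% of those myeloid cells without Siglech in the library labelled Irf4-/- and in 18.4% in the library labelled WT, so the make-up of this small cluster differed too. Its part in the ratio was not tested.

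Ly6c2 in B-lineage cells was low and stood in about the same ratio to Cd3d as in T cells. B-lineage cells had 110 CPM in the library labelled Irf4-/- and 214 CPM in the library labelled WT. At equal depth 5.77% (labelled Irf4-/-) and 11.2% (labelled WT) of them had a Ly6c2 UMI. Cd3d, a T cell receptor subunit that B cells do not use, had a UMI in 3.69% (labelled Irf4-/-) and 8.61% (labelled WT) of the same cells. Their median depths were 4230 UMIs (labelled Irf4-/-) and 3072 UMIs (labelled WT), and those of T cells 10152.5 (labelled Irf4-/-) and 7397 (labelled WT). Per 100 Cd3d UMIs, B-lineage cells held 182 Ly6c2 UMIs (161 to 206) in the library labelled Irf4-/- and 138 (125 to 152) in the library labelled WT. T cells held 178 (labelled Irf4-/-) and 135 (labelled WT) per 100, inside those intervals, while myeloid cells held 2377 (labelled Irf4-/-) and 909 (labelled WT). The 10 T cell markers summed to 359 CPM (labelled Irf4-/-) and 831 CPM (labelled WT) in B-lineage cells. The Ly6c2 UMIs lay in few B-lineage cells, 727 UMIs in 106 cells (labelled Irf4-/-) and 950 UMIs in 148 cells (labelled WT). Whether they came from free RNA or from droplets with more than 1 cell was not tested. The B-lineage log2 ratio of -0.96 is not read as a difference in expression. It was 0.23 with classes called cell by cell and 0.045 at a clustering resolution of 2. Without cells carrying both CD3 and Cd79 UMIs it stayed at -0.88 (-1.36 to -0.41).

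Ly6c1, the near copy of Ly6c2, was all but absent from the counts. T cells had 12 UMIs, 0.180 CPM (0.093 to 0.315), in the library labelled Irf4-/- and 31 UMIs, 0.384 CPM (0.261 to 0.546), in the library labelled WT, a log2 ratio of -1.09 (-2.19 to -0.09). At equal depth 0 of 5953 T cells had a UMI in the library labelled Irf4-/-, which allows a share of up to 0.0504%, and 8 of 10018 had one in the library labelled WT. No myeloid cell of either library had a UMI. These counts lie beside 120272 (labelled Irf4-/-) and 114044 (labelled WT) Ly6c2 UMIs in the same T cells, and given the near identity of the 2 transcript ends the direction for Ly6c1 is uncertain.

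Ly6e, the most widely expressed member, had a UMI in 98.7% (labelled Irf4-/-) and 95.5% (labelled WT) of all kept cells before equalising. T cells had 719 CPM (712 to 725) in the library labelled Irf4-/- and 609 CPM (604 to 615) in the library labelled WT, a log2 ratio of 0.24 (0.22 to 0.26). At equal depth 72.9% (labelled Irf4-/-) and 66.7% (labelled WT) of T cells had a UMI, with a median of 1 UMI per cell in both libraries. In 11 of the 12 T cell clusters compared the library labelled Irf4-/- had the higher Ly6e level, and in 9 the interval lay above 0. Their log2 ratios ran from -0.01 to 0.26, a narrower range than that of Ly6c2.

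Cluster levels of Ly6e differed less than those of Ly6c2. The interferon-led cluster had 956 CPM (labelled Irf4-/-) and 858 CPM (labelled WT), and the histone-led dividing cluster 932 CPM (labelled Irf4-/-) and 783 CPM (labelled WT). The interferon-led cluster was the highest only in the library labelled Irf4-/-. In the library labelled WT the Cenpf-led cluster was the highest, at 917 CPM. The Nrgn-led cluster, among the lowest, had 497 CPM (labelled Irf4-/-) and 494 CPM (labelled WT). Gamma-delta T-like cells had 771 CPM (750 to 793) in the library labelled Irf4-/- and 768 CPM (747 to 788) in the library labelled WT, and the log2 ratio was 0.0068 (-0.05 to 0.06), so no difference was detectable at this depth. Ly6c2 and Ly6e were found together in 65.2% of T cells in the library labelled Irf4-/- and 56.0% in the library labelled WT at equal depth. The products of their separate shares were 64.4% (labelled Irf4-/-) and 54.9% (labelled WT), so joint detection lay close to what separate detection gives.

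Ly6e CPM was higher in B-lineage and myeloid cells than in T cells in both libraries. B-lineage cells had 1295 CPM (1268 to 1323) in the library labelled Irf4-/- and 1508 CPM (1472 to 1545) in the library labelled WT, a log2 ratio of -0.22 (-0.27 to -0.17). Within the stage classes the ratios were nearer 0. B-like cells had 1600 CPM (labelled Irf4-/-) and 1596 CPM (labelled WT), with log2 ratio 0.0036 (-0.05 to 0.06), and progenitor B-like cells 890 CPM (labelled Irf4-/-) and 953 CPM (labelled WT), with log2 ratio -0.10 (-0.23 to 0.03). Finer splits were not level. Within the main progenitor cluster Ly6e was 1213 CPM (labelled Irf4-/-) and 1597 CPM (labelled WT), with log2 ratio -0.40 (-0.56 to -0.23). Among B-lineage cells with a UMI of Vpreb1, an early B cell gene, it was 899 CPM over 323 cells (labelled Irf4-/-) and 581 CPM over 19 cells (labelled WT), with log2 ratio 0.63 (0.41 to 0.86). In the main progenitor cluster such cells numbered 205 (labelled Irf4-/-) and 4 (labelled WT), with a Ly6e log2 ratio of -0.04 (-0.73 to 0.74). Among B-lineage cells without a UMI of the class II gene H2-Aa, Ly6e was 959 CPM (labelled Irf4-/-) and 1409 CPM (labelled WT), with log2 ratio -0.55 (-0.65 to -0.46). Myeloid cells had 1232 CPM in the library labelled Irf4-/- and 1267 CPM in the library labelled WT, and their intervals overlapped.

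Ly6d was the B-lineage member, and its level differed with the stage of the cells. B-lineage cells had 1969 CPM (1936 to 2003) in the library labelled Irf4-/- and 3033 CPM (2982 to 3085) in the library labelled WT, a log2 ratio of -0.62 (-0.66 to -0.59). At equal depth 79.0% (labelled Irf4-/-) and 90.4% (labelled WT) of cells had a UMI. B-like cells had 2981 CPM in the library labelled Irf4-/- and 3254 CPM in the library labelled WT, a log2 ratio of -0.13 (-0.16 to -0.09). Progenitor B-like cells had 628 CPM (labelled Irf4-/-) and 1642 CPM (labelled WT), a log2 ratio of -1.39 (-1.50 to -1.27), and a UMI in 50.8% (labelled Irf4-/-) and 80.6% (labelled WT) of cells.

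The progenitor B-like cells differed in stage genes between the libraries. Their main cluster held 296 cells of the library labelled Irf4-/- and 92 of the library labelled WT. Vpreb1, which encodes the surrogate light chain of early B cell progenitors, was detected in 69.3% of its cells in the library labelled Irf4-/- and 4.35% in the library labelled WT. Iglc1, a light chain constant region gene of later cells, was detected in 16.6% (labelled Irf4-/-) and 69.6% (labelled WT). Other stage genes did not follow one order. Ms4a1, a gene of later B cells, was found in 32.4% (labelled Irf4-/-) and 19.6% (labelled WT), and Rag1, a recombinase gene of progenitors, in 53.0% (labelled Irf4-/-) and 70.7% (labelled WT). Ly6d in this cluster was 1357 CPM in the library labelled Irf4-/- and 3975 CPM in the library labelled WT (log2 ratio -1.55), and the ratio turned to 0.18 (-0.18 to 0.57) under a stricter filter that left 15 cells of the library labelled WT. Among its cells without a Vpreb1 UMI it was 2263 CPM in 91 cells (labelled Irf4-/-) and 4193 CPM in 88 cells (labelled WT), a log2 ratio of -0.89 (-1.03 to -0.75). The smaller progenitor cluster, led by Myl4 and histone genes, had 32.6 CPM in 83 cells (labelled Irf4-/-) and 154 CPM in 19 cells (labelled WT).

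Across all B-lineage cells the Ly6d ratio was nearer 0 among cells without Vpreb1. Those without a Vpreb1 UMI had 2796 CPM over 741 cells in the library labelled Irf4-/- and 3236 CPM over 966 cells in the library labelled WT, a log2 ratio of -0.21 (-0.25 to -0.17), while Ly6e in them was 1557 CPM (labelled Irf4-/-) and 1577 CPM (labelled WT), with log2 ratio -0.018. Those with a Vpreb1 UMI had 724 CPM over 323 cells (labelled Irf4-/-) and 309 CPM over 19 cells (labelled WT), a log2 ratio of 1.23 (0.93 to 1.54) in the opposite direction. In the main progenitor cluster, cells with a Vpreb1 UMI had 1047 CPM over 205 cells (labelled Irf4-/-) and 681 CPM over 4 cells (labelled WT). Their log2 ratio was 0.62, and its interval, -0.26 to 1.69, includes 0. How far the make-up of the cells with Vpreb1 bears on the ratio of 1.23 was not tested. Cells with Vpreb1 thus had less Ly6d than cells without it in both libraries, and they made up a larger share of the B-lineage cells of the library labelled Irf4-/-. Other genes split the cells differently. Among B-lineage cells without an H2-Aa UMI Ly6d was 1017 CPM (labelled Irf4-/-) and 4093 CPM (labelled WT), with log2 ratio -2.01 (-2.09 to -1.93), and among those with one the log2 ratio was -0.08 (-0.12 to -0.04). In the main progenitor cluster the log2 ratio was -1.37 (-1.56 to -1.18) in cells with a Ms4a1 UMI and -2.01 (-2.16 to -1.85) in cells without one. Differences in stage and between the labels cannot be told apart here.

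**Figure D4:**
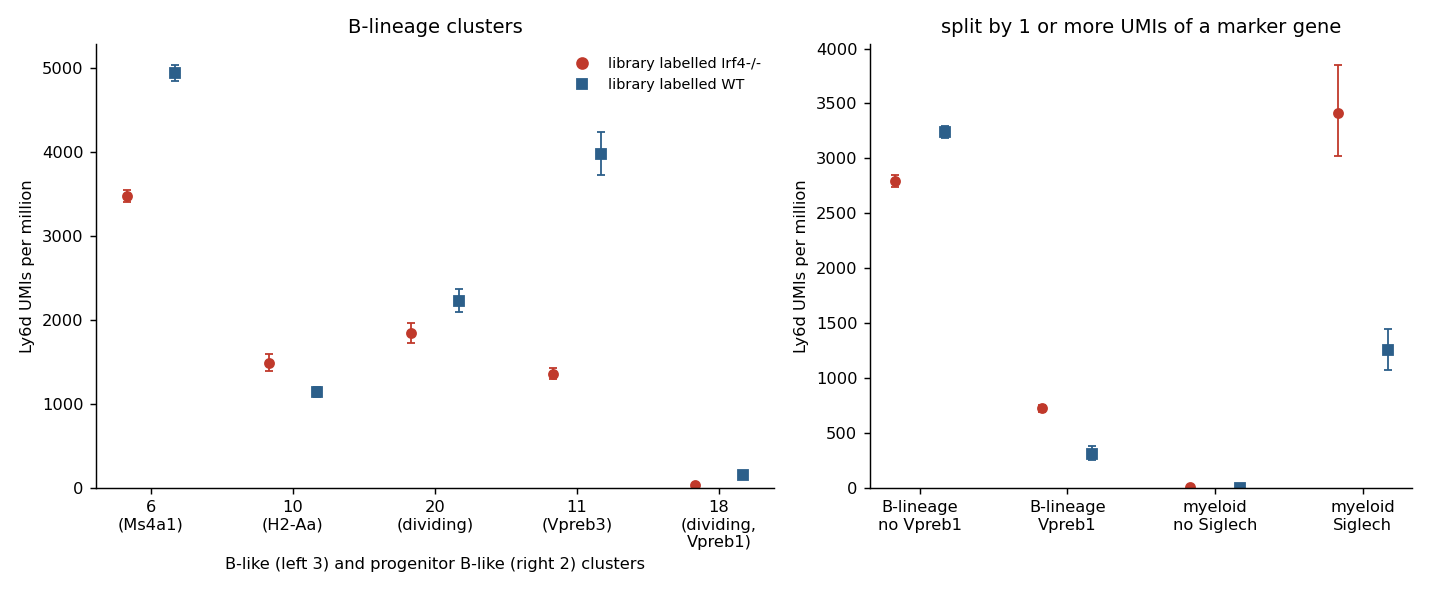
Ly6d level in CPM in the B-lineage clusters and in B-lineage and myeloid cells split by a Vpreb1 or Siglech UMI, with the library labelled Irf4-/- in red and the library labelled WT in blue; bars are 95% counting intervals. Cells without a Vpreb1 UMI stand at 2796 CPM (labelled Irf4-/-) and 3236 CPM (labelled WT) and cells with one at 724 CPM (labelled Irf4-/-) and 309 CPM (labelled WT).

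The B-like clusters differed in direction. The larger one, led by Ms4a1, which encodes CD20, had 3480 CPM of Ly6d in the library labelled Irf4-/- and 4941 CPM in the library labelled WT (log2 ratio -0.51). The one led by class II genes had 1493 CPM (labelled Irf4-/-) and 1138 CPM (labelled WT), with log2 ratio 0.39, which became -0.032 when cells with both CD3 and Cd79 UMIs were left out. A small dividing cluster had 1839 CPM in 25 cells (labelled Irf4-/-) and 2227 CPM in 37 cells (labelled WT). Ly6d and Ly6e were found together in 74.6% (labelled Irf4-/-) and 85.8% (labelled WT) of B-lineage cells at equal depth, against products of 72.7% (labelled Irf4-/-) and 85.0% (labelled WT).

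Outside the B-lineage clusters most Ly6d UMIs lay in a cluster left unnamed because it met the marker rules of both T and B-lineage cells. It was led by Igha, Iglc2 and Iglc1 and held 1071 Ly6d UMIs over 95 cells (labelled Irf4-/-) and 1771 over 108 cells (labelled WT), which is 7.39% (labelled Irf4-/-) and 11.3% (labelled WT) of all Ly6d UMIs. Its level was 883 CPM (labelled Irf4-/-) and 1543 CPM (labelled WT), and Cd3d was found in 90.6% and Cd79a in 99.5% of its cells over both libraries. T cells had few Ly6d UMIs, in 47 cells (labelled Irf4-/-) and 73 cells (labelled WT). T cells had 124 UMIs, 1.86 CPM (1.55 to 2.22), in the library labelled Irf4-/- and 185 UMIs, 2.29 CPM (1.98 to 2.65), in the library labelled WT, a log2 ratio of -0.30 whose interval, -0.64 to 0.04, includes 0. Of these UMIs, 65.3% (labelled Irf4-/-) and 67.6% (labelled WT) were in the 124 (labelled Irf4-/-) and 157 (labelled WT) T cells that carried both CD3 and Cd79 UMIs. Single cells weighed heavily, with up to 47 Ly6d UMIs (labelled Irf4-/-) and 36 Ly6d UMIs (labelled WT) in 1 cell. Gamma-delta T-like cells had 7 Ly6d UMIs (labelled Irf4-/-) and 3 Ly6d UMIs (labelled WT). In the myeloid cluster, 270 of 274 Ly6d UMIs of the library labelled Irf4-/- lay in 6 cells with a UMI of Siglech, a receptor of plasmacytoid dendritic cells, and 180 of 181 UMIs of the library labelled WT in 11 such cells. In those cells Ly6d reached 3417 CPM (labelled Irf4-/-) and 1252 CPM (labelled WT), within the range of B-lineage clusters, and Bst2, another plasmacytoid dendritic cell surface gene, 2670 CPM (labelled Irf4-/-) and 2642 CPM (labelled WT).

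The ratios of the members were set beside those of all genes. Among 13167 genes with at least 20 UMIs in T cells, 8.17% had a log2 ratio of at least 0.5 upward and 5.85% of at least 0.5 downward. Of the 5 members Ly6a passed upward and Ly6c1 downward. The median was 0.24 over the members and 0.01 over all genes. Among 10143 genes in gamma-delta T-like cells 5.95% passed upward and 5.96% downward, and of 3 members counted Ly6a passed upward. In B-lineage cells, 12.5% of 10527 genes passed upward and 9.71% downward, and Ly6a, Ly6c2 and Ly6d of 4 members passed downward. The median over the 4 members was -0.79 against 0.03 over all genes. It includes the Ly6c2 ratio, which is not read as a difference in expression. The splits and alternatives given above moved the B-lineage ratios. Over the alternatives Ly6a ran from 0.65 to 0.89 in T cells and from 1.39 to 1.49 in gamma-delta T-like cells. Ly6c1 ran from -1.46 to -0.92 in T cells. These ranges lay within the intervals of the reported values.

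**Figure D5:**
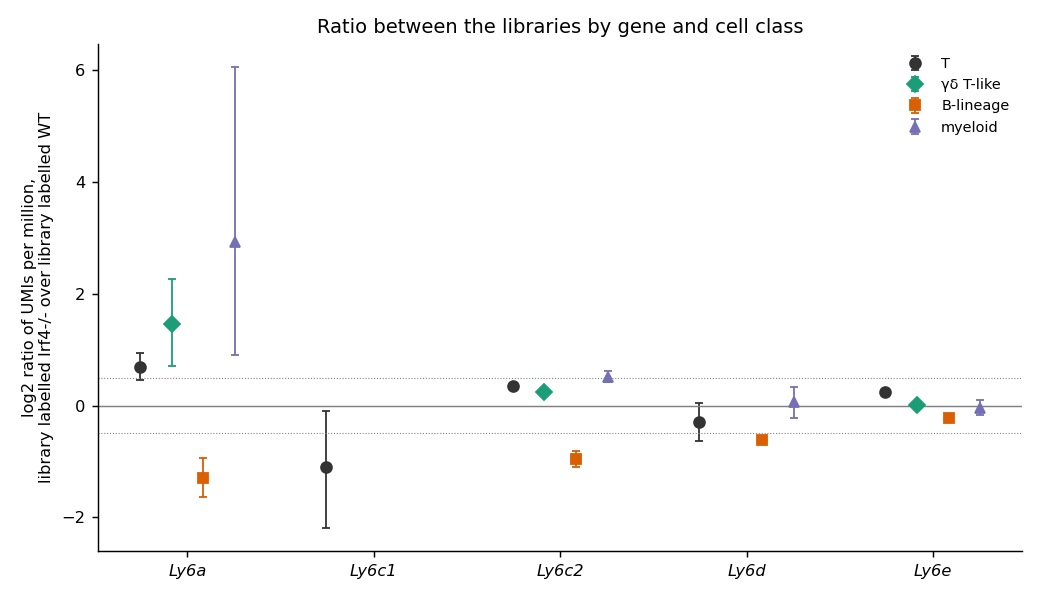
Log2 ratio of each member's level, library labelled Irf4-/- over library labelled WT, by class, for members with at least 20 UMIs; bars are 95% counting intervals and dotted lines mark a log2 ratio of 0.5 in either direction. Ly6a, Ly6c2 and Ly6e lie above 0 in T cells (0.69, 0.35, 0.24) and below 0 in B-lineage cells (-1.29, -0.96, -0.22). The B-lineage Ly6c2 value is not read as a difference in expression.

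The genes that build the GPI anchor of Ly6 proteins were close to level. Over all T cell genes 8.17% passed a log2 ratio of 0.5 upward and 5.85% downward. Of 28 anchor synthesis genes measured in T cells, none passed 0.5 upward and 2 passed downward, Pgap1, an inositol deacylase, at 3.64 CPM (labelled Irf4-/-) and 6.06 CPM (labelled WT), with log2 ratio -0.74, and Gpld1, a phospholipase that cuts the anchor, at 0.256 CPM (labelled Irf4-/-) and 0.372 CPM (labelled WT). Their median was -0.02. Of 16 other GPI-anchored surface genes, 2 passed upward and 1 downward, with a median of 0.14. Cd160, a receptor of cytotoxic lymphocytes, had 149 CPM in the library labelled Irf4-/- and 85.7 CPM in the library labelled WT (log2 ratio 0.80). Prnp, the prion protein gene, had 1.07 CPM (labelled Irf4-/-) and 0.509 CPM (labelled WT), with log2 ratio 1.07, and Bst1 had 9 UMIs (labelled Irf4-/-) and 20 UMIs (labelled WT).

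Interferon-response genes, the list that shares its known inducer with Ly6a and Ly6e, were mixed in T cells. Of 23 measured, 17 had a ratio above 0, 3 passed 0.5 upward and 3 downward, and the median was 0.17. Over all T cell genes 52.2% had a ratio above 0, 8.17% passed upward and 5.85% downward. Ifi27l2a was 374 CPM in the library labelled Irf4-/- and 215 CPM in the library labelled WT (log2 ratio 0.80), and Oas1a, a sensor of double-stranded RNA, 6.58 CPM (labelled Irf4-/-) and 2.82 CPM (labelled WT), with log2 ratio 1.23. Ifit2 was 8.63 CPM (labelled Irf4-/-) and 17.4 CPM (labelled WT), and Ifit3 0.241 CPM (labelled Irf4-/-) and 31.0 CPM (labelled WT), with log2 ratio -7.01. Ifit3 has a near copy, Ifit3b, so its count is uncertain. In gamma-delta T-like cells 7 of 23 passed upward and 3 downward, with a median of 0.26, beside 5.95% and 5.96% of all genes there. In B-lineage cells 12 passed upward and 3 downward with a median of 0.60, beside 12.5% and 9.71% of all genes. The median of this list and Ly6a lay on opposite sides of 0 in B-lineage cells.

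Memory and naive T cell genes bear on Ly6C as a memory marker. All 24 were measured in T cells, 3 passed 0.5 upward and 4 downward, and the median was -0.02. Over all T cell genes 8.17% passed upward and 5.85% downward. S100a6, a calcium-binding protein of memory cells, had 307 CPM in the library labelled Irf4-/- and 179 CPM in the library labelled WT (log2 ratio 0.78). Dapl1, a gene of naive-like CD8 T cells, had 4990 UMIs (labelled Irf4-/-) and 12435 UMIs (labelled WT), with log2 ratio -1.04, and Il7r, the interleukin-7 receptor, 271 CPM (labelled Irf4-/-) and 500.4 CPM (labelled WT), with log2 ratio -0.88. Gzmk had 0 UMIs in T cells of the library labelled Irf4-/- and 695 in those of the library labelled WT. Among 20 B-lineage stage genes in B-lineage cells, 9 passed upward and 3 downward, beside 12.5% and 9.71% of all genes there. Those upward were led by Vpreb1 at 332 CPM (labelled Irf4-/-) and 51.0 CPM (labelled WT), with log2 ratio 2.70, and Igll1, its partner chain, at 175 CPM (labelled Irf4-/-) and 34.7 CPM (labelled WT). Fcer2a, the CD23 gene of mature B cells, went the other way with 397 UMIs (labelled Irf4-/-) and 686 UMIs (labelled WT), with log2 ratio -1.37.

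Likeness was measured as the Pearson correlation of log2(CPM + 10) over 37 points, each a cluster in 1 library with at least 50 cells, among 2513 genes with a mean of at least 50 CPM. The points share 2 libraries, so the values are descriptions. Ly6c2 was most like 1700025G04Rik, Fxyd5, Emb, Arl4c and Il18r1, with r from 0.93 to 0.91. Ly6d was most like Siglecg, Rnase6, Arhgap17, Iglc3 and Unc93b1, with r from 0.98 to 0.97. Ly6e was most like Rnase6, Ly86, Fth1, Ly6d and Iglc3, with r from 0.86 to 0.84. Ly6a was most like H2-DMa and Ctss, genes of class II antigen presentation, both with r of 0.73, and then Fchsd2, H2-Eb1 and Ly6e, with r from 0.65 to 0.64. Among the members themselves Ly6d and Ly6e had r of 0.85 and Ly6c2 and Ly6d -0.75. Ly6c1 was too low for its list, led by Rhoh at 0.65, to be read.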

How the data were processed

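Single cells of 1 library per genotype were measured with a droplet 3' kit (v3), per the labels' protocols. The authors deposited raw UMI counts for each gene in each barcode, from Cell Ranger 6.1.1 per the file headers and on mm10 per the submitters' processing notes. No label states the annotation release. Every matrix was assigned to its sample, leaving 0 columns unassigned. The libraries held 82599767 (labelled Irf4-/-) and 95031071 (labelled WT) UMIs. Barcodes with at least 500 genes, at least 1000 UMIs and under 10% mitochondrial UMIs were kept, 7955 of 8147 (labelled Irf4-/-) and 12367 of 12732 (labelled WT). Both libraries were clustered together with scanpy 1.11.5 and igraph 0.11.9 on python 3.11.15 (2000 variable genes, 30 principal components, 15 neighbours, Leiden resolution 1), with 20 Ly6 gene symbols left out of the variable genes. A cluster was T cells where each CD3 gene had a UMI in 50% or more of its cells, and B-lineage where Cd79a had. Clusters with both stayed unnamed. Other names needed at least 2 markers among the 10 leading genes and at least 3 markers in at least 25% of cells, limits set after the clusters were seen. No doublets were removed, and cells with at least 2 CD3 and at least 2 Cd79 UMIs, 269 (labelled Irf4-/-) and 368 (labelled WT), were left out as an alternative.

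Counts were summed per library and class with numpy 2.4.6 and pandas 2.3.3. Intervals came from scipy 1.17.1, exact Poisson for levels, Clopper-Pearson for shares and exact conditional binomial for ratios. Ratios needed at least 20 UMIs over both libraries, and a share with a count of 0 was given a limit of 3 counts. Figures were drawn with matplotlib 3.10.9. The scripts were tested on simulated data. Alternatives covered filter, resolution, seed, class rule, scaling, weighting, left-out clusters and drawn depth. The genes named are the 5 members, the 5 genes most like each, other Ly6 genes with at least 20 UMIs, the gate genes, and up to 4 genes of each list with the largest T cell ratios. The B-lineage examples, Isg15, Cd8b1, Siglech, Bst2, S100a8 and Iglc1 were chosen after their values were seen. The members and lists were chosen with earlier results of these data known.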

Additional observations from a re-analysis of the deposited data

Results flagged for a closer look

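For 3 members the log2 ratios had opposite signs in T cells and in B-lineage cells. With 1 library per genotype the difference between the classes was not tested. The Ly6a log2 ratio of the library labelled Irf4-/- over that labelled WT was 0.69 in T cells and -1.29 in B-lineage cells. The B-lineage Ly6a value was -0.16 with clusters at equal proportions. For Ly6c2 the log2 ratio was 0.35 in T cells and -0.96 in B-lineage cells, where Ly6c2 stood in about the same ratio to Cd3d as in T cells. That B-lineage value is not read as a difference in expression. It was 0.23 cell by cell, 0.045 at resolution 2 and -0.88 without cells with CD3 and Cd79 UMIs. For Ly6e the log2 ratio was 0.24 in T cells and -0.22 in B-lineage cells, and the B-lineage value became 0.0036 without the progenitor clusters.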

How the results depend on the processing

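Over 21 log2 ratios, 191 of 200 alternative values kept their sign and 150 stayed within the interval of the value reported. Alternatives that leave out the Gzmk-led, interferon-led, Fcer1g or progenitor clusters, or cells with a Vpreb1 UMI, were chosen after seeing the data. In T cells Ly6a ran from 0.65 to 0.89 and Ly6c1 from -1.46 to -0.92. Ly6c2 moved to 0.34 with classes called cell by cell, 0.31 without mitochondrial and ribosomal UMIs, 0.34 after centring, 0.27 with clusters at equal proportions, 0.33 without the Gzmk-led cluster and 0.38 without the Fcer1g clusters. Ly6e moved to 0.22 cell by cell, 0.20 without mitochondrial and ribosomal UMIs and 0.17 at equal proportions. Ly6d in T cells moved to -0.81 at equal proportions, -0.82 without cell cycle clusters and 0.16 without the interferon-led cluster, where 49 of 52 UMIs of the library labelled WT lay in 2 cells with CD3 and Cd79 UMIs.

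B-lineage ratios depended most on the cells taken. With at least 1000 genes and 3000 UMIs per cell, Ly6a was -0.94, Ly6c2 -1.32, Ly6d -0.40 and Ly6e -0.032. With clusters at equal proportions these were -0.16, -0.64, -0.45 and -0.0036. Without progenitor clusters they were -0.70, -1.48, -0.13 and 0.0036, and in cells without a Vpreb1 UMI -0.69, -1.36, -0.21 and -0.018. At resolution 2 Ly6c2 was 0.045, Ly6d -0.78 and Ly6e -0.29, and at resolution 0.5 Ly6c2 was -0.40 and Ly6e -0.17. With Ly6 genes allowed among the variable genes Ly6c2 was -0.073, Ly6d -0.78 and Ly6e -0.28. Cell by cell, Ly6c2 was 0.23 and Ly6d -0.69. Without cell cycle clusters Ly6c2 was -1.33, Ly6d -0.38 and Ly6e -0.11. Without cells with CD3 and Cd79 UMIs Ly6c2 was -0.88, Ly6d -0.74 and Ly6e -0.29, and Ly6d in the class II-led cluster turned to -0.032. Ly6d averaged per cell was -0.56. Under the stricter filter Ly6d in the main progenitor cluster turned to 0.18, with 261 cells (labelled Irf4-/-) and 15 cells (labelled WT) left. Ly6c2 in myeloid cells averaged per cell was 0.32. The causes were not tested beyond the cells each alternative leaves out.

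The equal-depth difference in T cells, in percentage points, was 0.428 for Ly6a and 2.14 without equalising. For Ly6c2 it was 8.56 at 1000 UMIs, 2.76 at 4000 and 3.64 without equalising, and for Ly6e 6.15, against 4.13 at 4000 and 3.73 without equalising. Genes past a log2 ratio of 0.5, then of 1, then of 0.5 with at least 100 UMIs, numbered 1076, 275 and 672 upward and 770, 232 and 333 downward in T cells. They numbered 604, 139 and 188 upward and 605, 109 and 183 downward in gamma-delta T-like cells, and 1318, 421 and 647 upward and 1022, 321 and 460 downward in B-lineage cells. Barcodes outside the filter were not run, since clusters place kept cells only. Another random seed gave 14 T cell clusters in place of 13. No paired analysis was possible because each group holds 1 library. Depth limits Ly6a in T cells to 324 UMIs (labelled Irf4-/-) and 243 UMIs (labelled WT), and Ly6d there to 124 UMIs (labelled Irf4-/-) and 185 UMIs (labelled WT).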

Other observations

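Other genes of the Ly6 and uPAR domain family were mostly absent. Of 36 on the list, 34 are among the genes listed, 18 had no UMI in any kept cell and 8 had at least 20. Lynx1, which in the mouse brain binds nicotinic acetylcholine receptors, was a B-lineage transcript here, with 46.4 CPM (41.4 to 51.9) in the library labelled Irf4-/- and 97.4 CPM (88.4 to 107) in the library labelled WT, a log2 ratio of -1.07. It had a UMI in 21.8% (labelled Irf4-/-) and 29.9% (labelled WT) of B-lineage cells before equalising, against 0.453% (labelled Irf4-/-) and 0.488% (labelled WT) of T cells. Lypd6b was instead a T cell transcript, with 4.30 CPM (3.81 to 4.83) in the library labelled Irf4-/- and 6.51 CPM (5.97 to 7.09) in the library labelled WT, a log2 ratio of -0.60. Its B-lineage counts were 5 UMIs (labelled Irf4-/-) and 2 UMIs (labelled WT).

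Ly6g, the neutrophil antigen, had 58 UMIs in 5 myeloid cells of the library labelled Irf4-/- and 13 UMIs in 2 of the library labelled WT, and none in T, gamma-delta T-like or B-lineage cells. Plaur, the urokinase receptor, was 40.0 CPM (labelled Irf4-/-) and 22.6 CPM (labelled WT) in myeloid cells, with overlapping intervals, and 1.51 CPM (labelled Irf4-/-) and 6.54 CPM (labelled WT) in B-lineage cells. Ly6k was 4.48 CPM (labelled Irf4-/-) and 3.79 CPM (labelled WT) in T cells, 4.79 CPM (labelled Irf4-/-) and 1.85 CPM (labelled WT) in gamma-delta T-like cells and 9.38 CPM (labelled Irf4-/-) and 9.02 CPM (labelled WT) in B-lineage cells. In T cells Ly6m had 34 UMIs (labelled Irf4-/-) and 46 UMIs (labelled WT), Ly6g5b had 47 UMIs (labelled Irf4-/-) and 55 UMIs (labelled WT), and Cd59a, a complement inhibitor, had 2 UMIs (labelled Irf4-/-) and 3 UMIs (labelled WT).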
